A study of Homo sapiens with 4 samples.

Results

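The granins and their processing machinery are the soluble cargo of dense-core granules, the vesicles in which neuroendocrine cells store peptide hormones. Their expression was examined in LNCaP, an androgen-dependent line of human prostate cancer, and in LNCaP-35, its enzalutamide-resistant subline (LN-35 in the study). The 10 genes were chosen for their function, out of 20332 genes in the count table. 5 are granins (*CHGA*, *CHGB*, *SCG2*, *SCG3* and *VGF*), 3 are processing enzymes (*PCSK1*, *PCSK2* and *CPE*), and *SCG5* and *PCSK1N* encode small proteins that bind the convertases.

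RNA-seq was performed on 2 libraries of each line. LNCaP carries the genotype label WT and no treatment label. LNCaP-35 is labelled as resistance cells and as treated with enzalutamide, a drug that blocks the androgen receptor, and the study obtained it from LNCaP by raising the dose stepwise. By label, the lines shared a serum-containing RPMI-1640 medium. The study's methods add that the resistant cells were adapted to charcoal-stripped serum, so drug selection and loss of serum steroids cannot be told apart. The study's methods speak of independent replicates for its experiments in general, but the labels do not say that the libraries of a line came from separate cultures, and cloning of the subline is not stated. The p-values rest on the spread of 2 libraries per line, which may be technical.

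Granins are acidic secretory proteins that aggregate in the trans-Golgi network and help to load and shape dense-core granules. Inside the granule, the proprotein convertases PC1/3 and PC2 cut precursors after pairs of basic residues, and carboxypeptidase E then trims the exposed basic residues. Chromogranin A in tissue and serum is the classical marker of neuroendocrine differentiation in prostate cancer.

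Library totals ran from 12225169 to 15333715 counts. CPM denotes counts scaled to a common library size. Across tested genes, which are not independent replicates, the correlation of log2 CPM was 0.99 within LNCaP, 0.988 within LNCaP-35 and 0.738 to 0.742 from line to line. Of 10 markers of LNCaP and luminal prostate, all had counts in both lines, 7 were lower and 2 higher in LNCaP-35, and the summed level was 4917 to 5025 CPM in LNCaP and 4482 to 4486 CPM in LNCaP-35. Among neuroendocrine markers, *SYP* and *ENO2* rose, whereas *INSM1* and *NEUROD1* had 0 counts in all 4 libraries and *NCAM1* and *FOXA2* no more than 2 counts in a line. Markers of chromaffin and islet cells were nearly absent, with *TH*, *DBH*, *INS* and *SST* at 0 and a summed level of 0.161 to 0.43 CPM per library. Of 7 markers of basal or androgen-independent prostate lines, *CD44* rose from 0.103 ± 0.0565 to 78.1 ± 3.75 CPM and *VIM* from 27.7 ± 3.62 to 37.6 ± 0.822 CPM. *EGFR* fell from 115 ± 3.66 to 39.4 ± 0.487 CPM, and *KRT5* and *TP63* were at 0. The summed level, in which these opposite changes offset each other, was 142 to 143 CPM in LNCaP and 155 to 157 CPM in LNCaP-35. Of 4 fibroblast markers, *DCN* rose from 0 counts to 8.04 ± 2.18 CPM, while the summed level was 36 to 44.5 CPM in LNCaP and 40.2 to 44.3 CPM in LNCaP-35. Of 4 leukocyte markers, *CD3E* was at 0, *CD68* alone had enough counts to be tested and was not called, and the summed level was 9.46 to 11.9 CPM in LNCaP and 9.16 to 11.2 CPM in LNCaP-35. Of 3 endothelial markers, *CDH5* was at 0, *PECAM1* had at most 2 counts in a line and *VWF* fell from 6.09 ± 0.81 to 0.529 ± 0.277 CPM (edgeR adjusted p = 1.3e-07), and the summed level was 5.65 to 6.67 CPM in LNCaP and 0.333 to 0.805 CPM in LNCaP-35. Mitochondrially encoded genes took 9.39% to 9.53% of the counts in LNCaP and 13.8% to 14.8% in LNCaP-35. Without them in the fit, the 7 tested genes among the 10 were still called higher, *CPE* with a log2 fold change of 0.36. The part of the marker shifts in the results was not tested.

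The promoters of several of these genes are known to respond to cyclic AMP through the palindrome TGACGTCA, the cyclic AMP response element (CRE), which the factor CREB binds. RefSeq promoter windows (GRCh38.p14, 250 bases before to 50 after the annotated start) were matched for 8 of the 10 genes, in 10 windows, because *PCSK1* and *PCSK2* have 2 starts each. *CHGB* and *SCG2* had no window. The full CRE was found in *CHGA*, *VGF* and *PCSK1*, against 649 of 35116 promoters (1.85%), read on both strands. The half-site TGACG, on either strand and also counted inside the full CRE, was found in 24.6% of promoters. The 5 stretches shown run from 150 bases before to 10 bases after the start, 5′ to 3′ on the gene's strand, with CREs and half-sites in capitals. They set both CRE-bearing granin genes that rose beside a CRE-bearing convertase gene without counts, a granin gene with a half-site only and the carboxypeptidase gene.
CHGA: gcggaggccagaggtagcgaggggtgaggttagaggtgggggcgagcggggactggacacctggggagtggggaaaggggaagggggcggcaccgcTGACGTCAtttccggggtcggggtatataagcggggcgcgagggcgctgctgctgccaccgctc
VGF: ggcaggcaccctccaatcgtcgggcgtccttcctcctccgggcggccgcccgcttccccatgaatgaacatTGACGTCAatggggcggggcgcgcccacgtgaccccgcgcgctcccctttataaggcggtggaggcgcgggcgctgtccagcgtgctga
PCSK1: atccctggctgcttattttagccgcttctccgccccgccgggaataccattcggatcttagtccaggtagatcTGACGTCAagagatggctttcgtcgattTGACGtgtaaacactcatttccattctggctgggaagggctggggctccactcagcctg
SCG3: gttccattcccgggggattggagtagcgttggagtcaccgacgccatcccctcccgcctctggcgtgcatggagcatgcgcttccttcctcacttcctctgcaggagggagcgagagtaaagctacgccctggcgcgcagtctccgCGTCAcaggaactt
CPE: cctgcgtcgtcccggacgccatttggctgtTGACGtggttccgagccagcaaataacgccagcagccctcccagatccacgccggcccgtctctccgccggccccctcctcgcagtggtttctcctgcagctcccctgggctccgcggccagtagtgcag

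The *CHGA* stretch lies at chr14:92923000-92923159 on the plus strand and the *VGF* stretch at chr7:101165560-101165719 on the minus strand. The *PCSK1* stretch lies at chr5:96433239-96433398 on the minus strand. The *SCG3* stretch (chr15:51681353-51681512) and the *CPE* stretch (chr4:165378858-165379017) are on the plus strand. Counted from the start, with the base before it at -1, the CRE began at -54 in *CHGA*, -79 in *VGF* and -77 in *PCSK1*. *CHGA* and *VGF* also held the letters TATAA, the core of a TATA box, from -29 and -30. TATAA lay in the last 50 bases before the start of 4.74% of all promoters on the gene's strand, and 36 of them (0.103%) held both it and a CRE. The CRE-bearing window of *PCSK1* had no TATAA there and held a further half-site from -49. In *SCG3* the half-site spans the start, and in *CPE* half-sites begin at -120 and -221, the latter outside the stretch shown. *PCSK1N* held neither motif. These matches describe letters and do not show binding. The starts used are those of RefSeq. In the GENCODE 29 annotation each gene shown begins further upstream. It begins at 92923080 for *CHGA*, 101165593 for *VGF*, 51681353 for *SCG3*, 165361194 for *CPE* and 96434143 for *PCSK1*. The *SCG3*, *CPE* and *PCSK1* stretches thus lie wholly within the genes as GENCODE draws them. The CRE and TATAA of *CHGA* also lie within its GENCODE gene, whereas those of *VGF* lie before the gene.

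**Figure D1:**
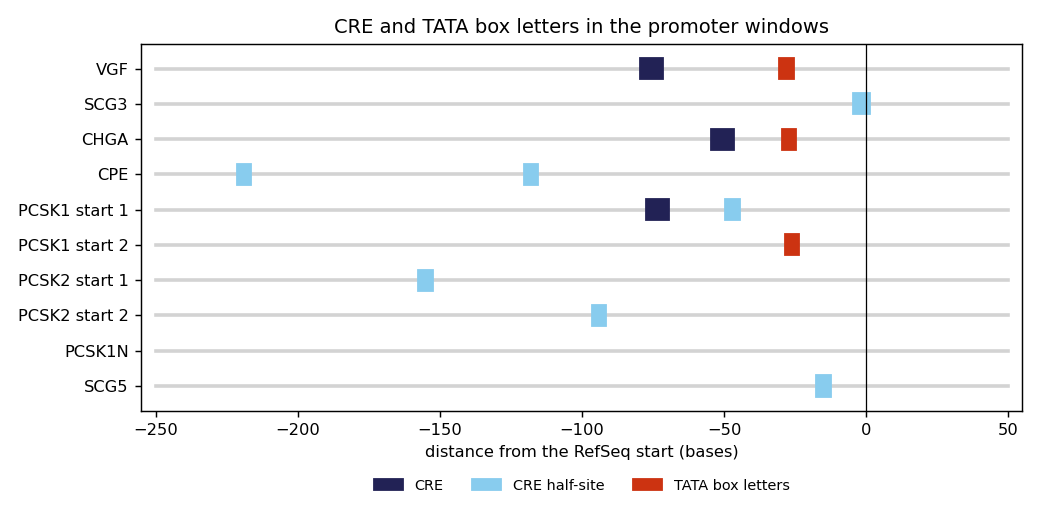
Positions of the CRE (dark), the CRE half-site outside a full CRE (light) and TATAA within 50 bases of the start (red) in the 10 RefSeq promoter windows. The x axis is the distance from the annotated start in bases. A CRE and TATAA occur together in *VGF* and *CHGA* alone, and the first *PCSK1* window has a CRE without TATAA.

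Of the 10 genes, 7 had enough counts to be tested, and each of those 7 was higher in LNCaP-35. Across all 13744 tested genes, 71.8% were called in either direction and 36.4% were called higher (edgeR's quasi-likelihood test, Benjamini-Hochberg adjusted p under 0.05). *CHGA*, *CHGB*, *SCG2*, *SCG3* and *VGF* passed the filter on low counts through LNCaP-35, where they are high. Among the 886 tested genes without a single LNCaP library at 10 counts, a class that holds all of these granins except *VGF*, 98.6% were called higher. The number of rises is therefore not read as a result about these genes. In bulk RNA, fewer cells expressing a gene and less RNA per cell cannot be told apart.

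*VGF* encodes a granin-like precursor of several neuropeptides that nerve growth factor induces in rat PC12 cells. It had 8 and 22 counts in LNCaP repeats 1 and 2, and 5656 and 5447 counts in LNCaP-35 repeats 1 and 2. These correspond to 0.508 and 1.58 CPM against 471 and 438 CPM, a 446-fold rise (edgeR adjusted p = 6.74e-17, log2 fold change 8.80, SE 0.17). The lines did not overlap, and the LNCaP-35 libraries were close to each other while those of LNCaP, with few counts, were not. Without LNCaP replicate 1 the log2 fold change was 8.16, and without LNCaP replicate 2 it was 9.78. Among all 20332 genes, *VGF* ranked 215 and 245 by CPM in the LNCaP-35 libraries. It contributed 76.7% and 76.3% of the summed granin CPM in LNCaP-35.

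*SCG3* encodes secretogranin III, which anchors granin aggregates to the cholesterol-rich granule membrane. Its counts were 1 and 4 in LNCaP and 700 and 731 in LNCaP-35, or 0.0635 and 0.287 CPM against 58.3 and 58.8 CPM. It was near the limit of detection in the parent and at nearly equal levels in both libraries of the subline. *SCG3* passed the test (edgeR adjusted p = 6.16e-19) with a log2 fold change of 8.37 (SE 0.25). This was 7.62 without LNCaP replicate 1 and 9.65 without LNCaP replicate 2.

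The classical chromogranins were gained from no detectable transcript. *CHGB*, encoding chromogranin B, had 0 counts in both LNCaP libraries and 554 and 577 counts in LNCaP-35, which is 46.1 and 46.4 CPM. Set against 3 counts over the LNCaP group (0.101 CPM), *CHGB* was at least 458-fold higher in LNCaP-35 (edgeR adjusted p = 5.56e-18). *CHGA*, encoding chromogranin A, likewise had 0 counts in LNCaP and 401 and 321 counts in LNCaP-35. Its levels there were 33.4 and 25.8 CPM, the widest relative gap between LNCaP-35 libraries among the granins, and it was at least 293-fold higher (edgeR adjusted p = 1.69e-15).

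*SCG2*, encoding secretogranin II, the precursor of secretoneurin, was the granin with the lowest level in LNCaP-35. It had 6 and 1 counts in LNCaP and 59 and 67 counts in LNCaP-35, or 0.381 and 0.0717 CPM against 4.91 and 5.39 CPM. The lines did not overlap, and *SCG2* passed the test (edgeR adjusted p = 1.26e-07, log2 fold change 4.40, SE 0.54). The size rested on the few parental counts, with 5.98 without LNCaP replicate 1 and 3.72 without LNCaP replicate 2.

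**Figure D2:**
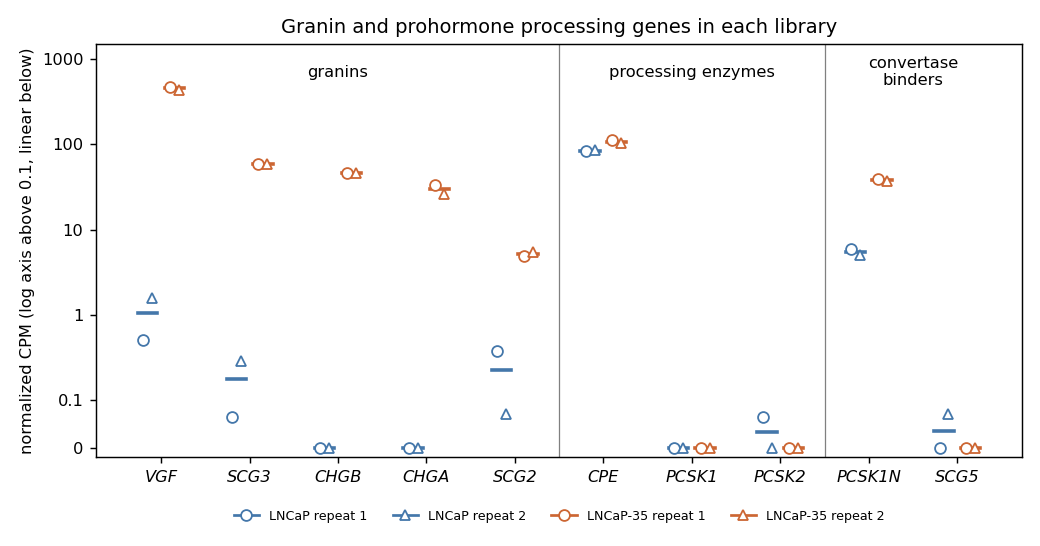
Normalized CPM of the 10 genes in each library, on a y axis that is logarithmic above 0.1 CPM and linear below. Circles are repeat 1, triangles repeat 2 and bars the means of 2 libraries, with LNCaP in blue and LNCaP-35 in orange. The granins and *PCSK1N* separate by line, *CPE* is high in both lines, and *PCSK1*, *PCSK2* and *SCG5* have at most 1 count in a library.

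The prohormone convertases were not gained with the granins. *PCSK1* encodes PC1/3, which makes the early cuts in most prohormones of the regulated pathway, and it had 0 counts in all 4 libraries. *PCSK2* encodes PC2, which makes later cuts, and it had 1 and 0 counts in LNCaP and 0 and 0 counts in LNCaP-35. *SCG5* encodes 7B2, the chaperone that PC2 needs to become active, and it had 0 and 1 counts in LNCaP and 0 and 0 counts in LNCaP-35. These 3 genes were too low to test, and no fold is given for them. A count of 0 in LNCaP-35 allows up to 3 counts over both libraries, or 0.123 CPM, for counting error only.

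*CPE*, encoding carboxypeptidase E, was already high in the parent. It had 1309 and 1191 counts in LNCaP and 1335 and 1297 in LNCaP-35, or 83.1 and 85.4 CPM against 111 and 104 CPM. The lines did not overlap, but the rise was 1.28-fold (edgeR adjusted p = 0.000278), with a log2 fold change of 0.36 and a 95% interval of 0.20 to 0.52. Tested against a 1.5-fold change instead of no change, it did not pass (adjusted p = 1).

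*PCSK1N* encodes proSAAS, a granin-like protein whose fragments inhibit PC1/3. It had 94 and 71 counts in LNCaP and 472 and 460 in LNCaP-35, or 5.97 and 5.09 CPM against 39.3 and 37 CPM. Unlike any granin, it had more than 10 counts in each LNCaP library, and it rose 6.87-fold (edgeR adjusted p = 5.76e-14, log2 fold change 2.78, SE 0.15). Repeat 1 alone gave a log2 ratio of 2.72 and repeat 2 one of 2.86. The transcript of the PC1/3 inhibitor rose while that of PC1/3 stayed at 0 counts.

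Levels of different genes were compared per kilobase of merged exon. In LNCaP the order was *CPE* (28.5 ± 0.55 CPM per kb, SD, n = 2) and then *PCSK1N* (4.06 ± 0.454 CPM per kb), with each granin below 1 CPM per kb. In LNCaP-35, *VGF* stood at the top with 168 ± 8.57 CPM per kb. It was followed by *CPE* at 36.4 ± 1.63, *PCSK1N* at 28 ± 1.19 and *SCG3* at 17.7 ± 0.111 CPM per kb. *CHGB* (10.2 ± 0.045 CPM per kb) and *CHGA* (9.55 ± 1.73 CPM per kb) overlapped, and *SCG2* was last of the tested genes at 1.9 ± 0.124 CPM per kb. With the longest annotated transcript as the length, *CHGB* (18.2 CPM per kb) moved above *SCG3* (17.7 CPM per kb) and the other ranks stayed. Against the level that 0 counts allow for *PCSK1* (0.0231 CPM per kb), *VGF* was at least 7268-fold, *CPE* at least 1575-fold and *CHGA* at least 413-fold higher per kb in LNCaP-35. Against that of *PCSK2*, *VGF* was at least 9694-fold higher.

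**Figure D3:**
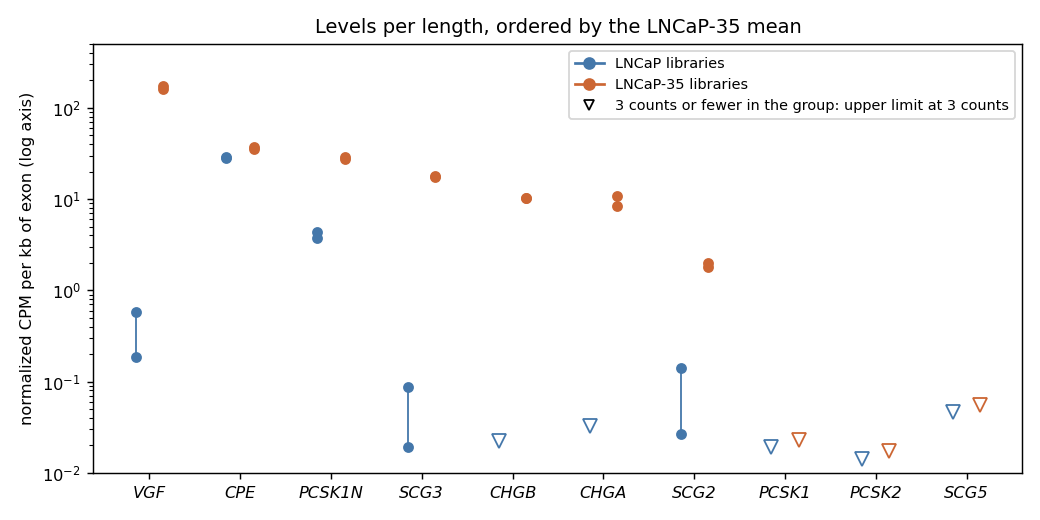
Normalized CPM per kb of merged exon on a logarithmic y axis, ordered by the LNCaP-35 mean. Dots are libraries, lines join libraries of a line, and open triangles mark the upper limit of groups with 3 counts or fewer. *VGF* leads in LNCaP-35 at 168 CPM per kb, and *PCSK1*, *PCSK2* and *SCG5* have limits below 0.1 CPM per kb in both lines.

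The genes are protein coding and have coordinates in GENCODE 29 on GRCh38, the assembly of hg38. *CHGA* (ENSG00000100604) lies at chromosome 14, 92923080 to 92935293, and *CHGB* (ENSG00000089199) at chromosome 20, 5911430 to 5925361. *VGF* (ENSG00000128564) lies at chromosome 7, 101162509 to 101165593, and *SCG3* (ENSG00000104112) at chromosome 15, 51681353 to 51721031. No gene in the count table overlaps any of the 10 genes, and of the annotated neighbours only an antisense transcript at *SCG5* shares exon bases (11 bases). Counts of the 10 genes are given after rounding to whole numbers.

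Other proprotein convertases were present in both lines. Of 7 listed, 5 were tested, 2 rose and 2 fell, with a median log2 fold change of 0.31 against -0.01 over all tested genes. Of all tested genes, 36.4% were called higher and 35.5% lower. *FURIN*, the convertase of the constitutive pathway in the trans-Golgi network, rose from 64.4 ± 3.65 to 107 ± 2.78 CPM (log2 fold change 0.73, SE 0.08). *MBTPS1*, the site-1 protease that cuts SREBP and ATF6, rose from 109 ± 2.43 to 177 ± 1.65 CPM. *PCSK6*, a convertase of growth factor precursors known as PACE4, fell by 3.61 on the log2 scale (50.4 ± 2.38 to 4.12 ± 1.23 CPM, edgeR adjusted p = 1.71e-15), and *PCSK7* fell by 0.46. *PCSK5* had 6 counts over the LNCaP libraries and 13 over those of LNCaP-35 and was not tested.

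Enzymes that finish peptides after the convertase cut were mixed. Of 10 listed, 8 were tested, 2 rose and 3 fell, with a median log2 fold change of -0.09. The shares over all tested genes were 36.4% higher and 35.5% lower. *PAM*, which amidates the C-terminus of many neuropeptides, rose from 11.9 ± 0.45 to 42 ± 3.38 CPM (edgeR adjusted p = 9.14e-12, log2 fold change 1.81, SE 0.13). *CPD*, the carboxypeptidase of the trans-Golgi network, fell by 0.43 (289 ± 3.57 to 215 ± 5.69 CPM), while *QPCTL*, *TPST2* and *RNPEP* had log2 fold changes of 0.49, -0.51 and -0.21. *QPCTL* and *RNPEP* lost the call with DESeq2 and without LNCaP-35 replicate 2, and *TPST2* with DESeq2 and without LNCaP replicate 1 or LNCaP-35 replicate 2. Without LNCaP-35 replicate 2 the list had 1 higher and 1 lower call.

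Genes of the granule membrane, granule biogenesis and release split by direction. Of 30 listed, 25 were tested, 12 rose and 11 fell, with a median log2 fold change of 0.16. Over all tested genes 36.4% were called higher and 35.5% lower, so the split is not read as a result about the list. Rises were led by release genes. *UNC13A*, which primes vesicles for fusion, had 23 and 24 counts in LNCaP and 4290 and 4435 in LNCaP-35 (log2 fold change 7.81, SE 0.12). *STX1A*, a syntaxin of the plasma membrane, had 86 and 85 against 1154 and 1190 counts (4.06, SE 0.12), and *SYT4*, a synaptotagmin found on dense-core granules, 599 and 544 against 6467 and 6640 counts (3.80, SE 0.08). *SYP*, the synaptic vesicle protein synaptophysin, rose with a log2 fold change of 5.64 (SE 0.20).

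Genes of the granule membrane and of granule maturation were among the falls. *PTPRN2*, a transmembrane protein of the granule also called phogrin, fell by 2.05 on the log2 scale (SE 0.25, 10.1 ± 0.134 to 2.42 ± 0.233 CPM). Its relative *PTPRN*, known as IA-2, had 2 and 1 counts in LNCaP and 0 counts in LNCaP-35. *HID1*, needed for granule maturation at the Golgi in worms and mice, fell by 1.61 (SE 0.08). *CYB561*, the cytochrome that supplies electrons to the granule interior, fell by 1.47 (SE 0.07), and *RAB3D*, a GTPase of secretory granules, by 1.09 (SE 0.09). *CADPS*, which primes dense-core granules, and the monoamine transporter gene *SLC18A1* had 0 counts in all libraries. *CADPS2*, a relative of *CADPS* named here after its values were seen, rose from 7.07 ± 0.751 to 17.6 ± 0.439 CPM (log2 fold change 1.32, SE 0.18).

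Of 54 listed peptide hormone and neuropeptide precursors, 22 were tested, 13 rose and 5 fell, with a median log2 fold change of 1.38. Of the 22, 8 had no LNCaP library at 10 counts and so passed the filter through LNCaP-35, and all 8 are among the 13 rises. Of all tested genes that passed in this way 98.6% were called higher, beside 36.4% higher and 35.5% lower over all tested genes, so neither the number of rises nor the median is read as a result about the list. Another 17 had 0 counts in all libraries, among them *POMC*, *PENK*, *SST* and *GRP*. *APLN*, the apelin precursor, had 78 and 68 counts in LNCaP and 2552 and 2494 in LNCaP-35 (log2 fold change 5.39, SE 0.11). *EDN1*, the endothelin-1 precursor, had 2 and 3 counts against 312 and 296 counts (7.13, SE 0.31). *CALCA*, the precursor of calcitonin and its gene-related peptide, had 7 and 5 counts against 140 and 145 counts (4.82, SE 0.34), and it resembles *CALCB* in sequence, so reads may be shared. *ADCYAP1*, the precursor of the neuropeptide PACAP, and *NPY*, named here after their values were seen, had 0 counts in LNCaP. *ADCYAP1* had 113 and 126 counts in LNCaP-35, at least 96.9-fold higher, and *NPY* 46 and 40 counts, at least 34.9-fold higher. In the opposite direction, *GAL*, the galanin precursor, fell from 163 and 182 counts to 9 and 5 counts (log2 fold change -4.33, SE 0.34). *AGT*, encoding angiotensinogen, had a log2 fold change of -3.97, or -3.41 without LNCaP-35 replicate 1 and -4.93 without LNCaP-35 replicate 2. *NPPC*, encoding C-type natriuretic peptide, had one of -2.71, or -1.90 without LNCaP replicate 1, -2.05 without LNCaP-35 replicate 1 and -3.97 without LNCaP-35 replicate 2.

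**Figure D4:**
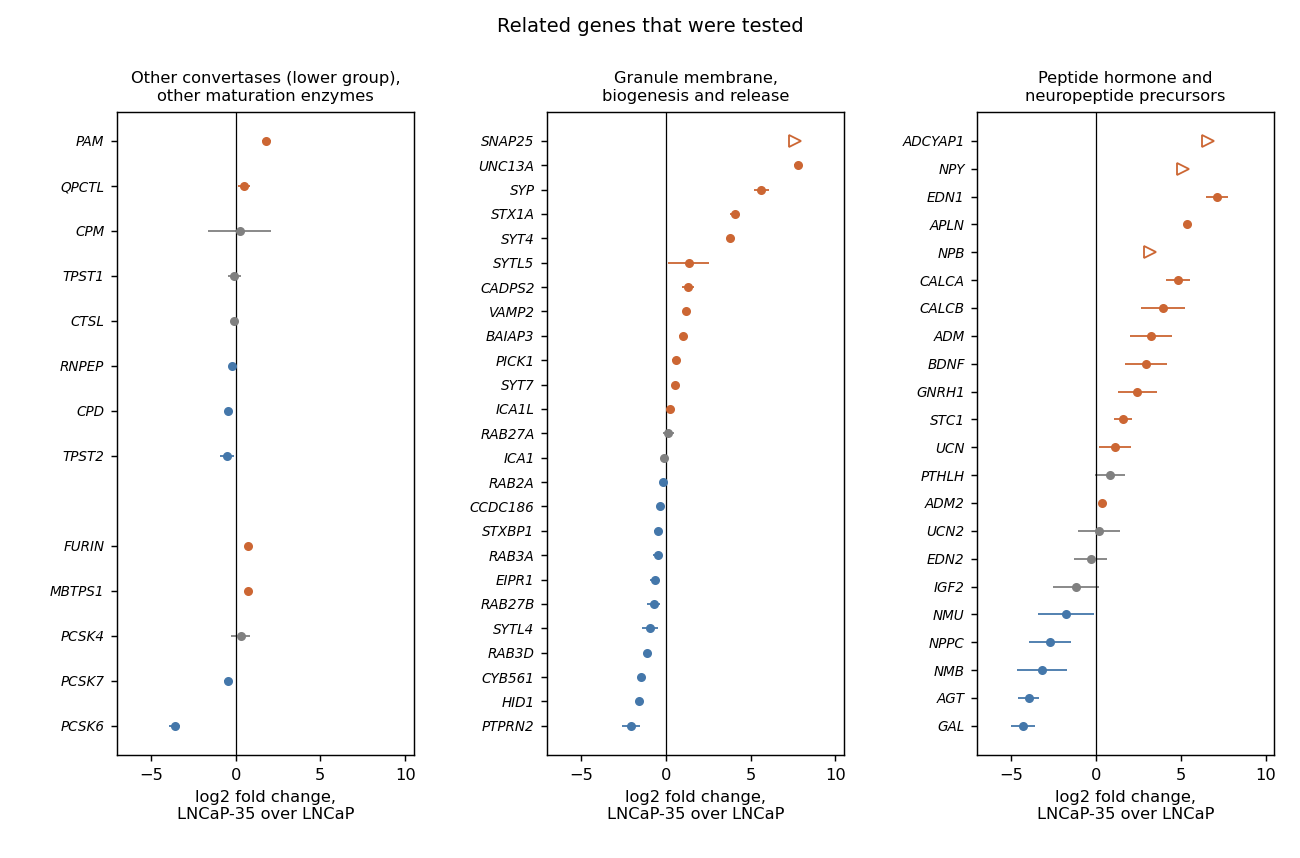
Log2 fold changes of LNCaP-35 over LNCaP for the tested genes of the 4 related lists, on the x axis, with 95% intervals from the edgeR fit. Orange genes rose, blue genes fell and grey genes did not pass. Open triangles mark genes with 3 counts or fewer in LNCaP, drawn at the lower bound of the fold. Release genes such as *UNC13A* rose, *PTPRN2* and *HID1* fell and so did *GAL* (-4.33), while *EDN1* (7.13) rose and *ADCYAP1* and *NPY* are drawn at their bounds.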

How the data were processed

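RNA-seq libraries of LNCaP and LNCaP-35 (2 each) were grouped by their titles. TRIzol was used for total RNA and the NEBNext Ultra RNA kit for the libraries, per the labels. The authors deposited 1 table of expected counts (estimated counts per gene, not scaled between libraries), made per their processing notes with HISAT2 2.0.5 and featureCounts 1.5.0-p3 on hg38. In each library 11.5% to 12% of values were fractional, and the step that made them and any use of strand are not given in the sources used here. Counts were rounded, genes were kept by filterByExpr (minimum count 10), libraries were scaled with TMM factors, and all 13744 genes were fitted with the quasi-likelihood test of edgeR (two-sided, robust, design ~ group). SE is the size of the log2 fold change divided by the square root of F. Levels are CPM of the TMM-scaled libraries. Floors cover counting error only, since there were no molecular identifiers.

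The study's methods state no RNA-seq model. The batch label gives each line a repeat 1 and a repeat 2, which was taken to pair the libraries. Deviations from the group means of same-numbered libraries correlated at 0.00839, and the design with the replicate block was run as an alternative. Other alternatives were DESeq2 size factors, library totals, no mitochondrially encoded genes, no filter, a minimum count of 50, DESeq2, limma-voom, a 1.5-fold threshold and leaving out each library. The genes and lists were chosen with earlier results of these data known. Named beside the 10 genes were up to 3 called genes per list and direction with the smallest adjusted p at a mean of at least 1 CPM, and *FURIN*, *PCSK5*, *PAM*, *PTPRN*, *PTPRN2* and *SYP* whatever their result. 1 marker gene is not reported here. Other genes named at 0 counts, or as markers, were chosen after their values were seen. Symbols were found for 20304 of 20332 identifiers. DESeq2 1.42.0, edgeR 4.0.16 and limma 3.58.1 were run in R 4.3.3, and figures were drawn with matplotlib 3.10.9 (Python 3.11.15).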

Additional observations from a re-analysis of the deposited data

How the results depend on the processing

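The 7 tested granin and processing genes were refitted under 13 alternatives. Of 91 log2 fold changes so obtained, none reversed and 90 kept their side of the threshold. The exception was *CPE* against a 1.5-fold change, at 0.36 and adjusted p = 1. There the count of higher genes was 6, and it was 7 in the other alternatives. The granins passed the filter on low counts through LNCaP-35, where they are high. Of tested genes without an LNCaP library at 10 counts, as *CHGA*, *CHGB*, *SCG2* and *SCG3* are, 98.6% were called higher. The kept calls of the granins are therefore not read as support. The replicate block changed none of the 7 calls, with *CPE* at 0.36 and edgeR adjusted p = 0.000424 and *SCG2* at 4.43 with the pairing. Across all genes, 4999 higher and 4874 lower calls became 2904 and 2445 against a 1.5-fold change. In the same test, the lower calls among other convertases were 1, those among granule genes 5, and the calls among maturation enzymes 1 higher and 0 lower. With DESeq2 the maturation enzymes had 1 higher and 1 lower call and the hormone precursors 3 lower. With a minimum count of 50 the precursors had 6 higher and 2 lower calls, since fewer genes were tested. Without a library, calls among maturation enzymes ranged from 1 to 2 higher and from 1 to 3 lower, with the lowest counts without LNCaP-35 replicate 2. Depth limits the parental levels of *SCG2*, *SCG3* and *VGF* and the limits given for *PCSK1*, *PCSK2* and *SCG5*.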
